A study of Homo sapiens with 36 samples.

Results

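Transcript levels of 10 histone deacetylase genes, HDAC1 to HDAC8, HDAC10 and HDAC11, were examined in 6 human colon cancer cell lines. The 10 genes were taken by their names from a table of 26468 genes, and all 10 were among the 15542 genes tested. COLO205, COLO320, HCT-15, HCT116, HT-29 and SW480 were each kept for 24 h in 0.5 µM JQ1 or in DMSO, the solvent. There were 3 DMSO and 3 JQ1 libraries for each line, which makes 36 libraries in 12 groups. JQ1 keeps BET proteins off acetylated lysines by filling their bromodomains, and these proteins help RNA polymerase to elongate transcripts. Every group is a single tumour line grown in culture, and the COLO320 genome carries MYC in amplified form. The labels do not say whether replicates came from separate cultures, so the spread behind each p-value is that between these libraries and may be technical.

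Histone deacetylases remove acetyl groups from lysines of histones and of other proteins, and so take away the marks that bromodomains bind. The zinc-dependent enzymes fall into classes. Class I (HDAC1, HDAC2, HDAC3 and HDAC8) is mostly nuclear, and HDAC1, HDAC2 and HDAC3 work as the catalytic subunits of corepressor complexes. Class IIa (here HDAC4, HDAC5 and HDAC7) has little deacetylase activity of its own, binds MEF2 transcription factors and moves between nucleus and cytoplasm. HDAC9, also of class IIa, is not among the 10 genes and had a mean over 1 RPKM only in COLO320 with DMSO, 1.17 ± 0.0549 (SD, n = 3) against 0.785 ± 0.113 with JQ1. Class IIb holds HDAC6, a cytoplasmic tubulin deacetylase, and HDAC10, a polyamine deacetylase. HDAC11, the only class IV enzyme, removes fatty acyl groups. In the intestine HDAC1 and HDAC2 are known for restraining differentiation of the epithelium.

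Libraries held 18.8 to 53.1 M reads in genes. All 8 colon epithelial markers searched for were found in the table. In DMSO the summed level of EPCAM, CDH1, KRT8, KRT18, KRT19, CDX2, VIL1 and CDH17 was 1152 to 3903 RPKM in single libraries. With JQ1 this sum was higher in 5 lines, most in HT-29 (3834 to 3903 against 8688 to 8796) and HCT-15 (2326 to 2349 against 7072 to 7165), and lower in COLO320 (1152 to 1165 against 883 to 917). Not every marker rose: by the limma test given below, 5 of the 8 were called higher on average and 3 lower. The 3 were EPCAM, VIL1 and CDH17, with log2 changes of −0.54, −0.57 and −0.84. In HCT-15 VIL1 and CDH17 changed by −2.28 and −1.55, and in SW480 3 markers were called higher and 4 lower. Markers over 1 RPKM went from 8 to 7 in HT-29 and HCT-15 and from 7 to 8 in COLO205. In COLO320 with DMSO, CDX2 alone reached 1099 RPKM and 5 of the 8 markers exceeded 1 RPKM, against 3 with JQ1. Endothelial markers summed to at most 0.2 RPKM in any library. Fibroblast markers summed to 0.181 to 3.38 RPKM, except in COLO320 with 15.5 to 15.8 in DMSO and 2.93 to 3.23 with JQ1, mostly COL3A1. Of the leukocyte markers LYZ was abundant in HT-29, at 1518 RPKM in DMSO and 1125 with JQ1, and in COLO205, at 1057 and 525. The part of these markers in the results below was not tested. MYC, which JQ1 is known to lower, fell 1.11-fold to 2.54-fold over the lines, and HEXIM1, which it is known to raise, rose 2.09-fold to 6.35-fold.

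In the DMSO libraries the class I enzymes dominated. Levels here are RPKM, reads per kilobase of gene scaled to sequencing depth, which allows comparison between genes. HDAC1 was the most abundant member in each of the 6 lines, at 228 ± 4.17 RPKM in COLO205 (SD, n = 3) and 76 ± 1.49 in SW480, and stood above 94.1% to 98.3% of the tested genes. HDAC2, its close paralogue and partner in the same complexes, ran from 18.9 ± 0.541 RPKM in COLO205 to 47.9 ± 0.187 in COLO320. HDAC3, the catalytic subunit of the NCoR complex, ran from 31.3 ± 1.05 in HCT-15 to 48.2 ± 0.428 in HCT116. HDAC8, which deacetylates cohesin, was the least abundant class I gene in every line, with 4.25 ± 0.202 RPKM in HCT116 and 7.94 ± 0.489 in HT-29. COLO205 thus had the highest HDAC1 and the lowest HDAC2 of the 6 lines. The ratio of HDAC1 to HDAC2 was 12.1 ± 0.137 there, against 1.78 ± 0.0162 in COLO320. RefSeq lists 2 HDAC1 pseudogenes, HDAC1P1 and HDAC1P2, and the rule by which reads were divided between such copies is not known here.

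The class IIa genes differed most between lines. HDAC4 measured 31.8, 32.6 and 33 RPKM in the 3 COLO205 DMSO libraries, and 8.07, 7.6 and 7.51 in SW480, the next line in order. The other lines held 2.46 ± 0.0717 in HCT116 to 3.99 ± 0.186 in HT-29, so the highest line exceeded the lowest 13.2-fold. HDAC5 showed the opposite extreme in COLO205, with 0.507, 0.297 and 0.507 RPKM. These values rest on few reads, 32 in the lowest library. COLO320 was the HDAC5-rich line, at 18.8, 18.6 and 18.6 RPKM, 42.7-fold above COLO205. HDAC7 was high in HT-29 and SW480, at 24.9 ± 0.489 and 24.1 ± 0.9 RPKM, and low in COLO205, at 5.04 ± 0.0492. COLO205 was therefore a line of high HDAC4 with little HDAC5 and HDAC7.

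The class IIb genes varied less between lines. HDAC6 ran from 9.85 ± 0.574 RPKM in HCT116 to 15.1 ± 0.211 in COLO320, a 1.53-fold span, the smallest of the 10 genes. HDAC10 ran from 6.93 ± 0.446 in COLO320 to 12 ± 1.41 in COLO205. HDAC11, of class IV, was between 1.27 ± 0.0275 RPKM in COLO205 and 4.31 ± 0.252 in HCT116. The level in DMSO differed between lines for all 10 members (limma F test, adjusted p = 3.69e-33 for HDAC4 to 4.61e-07 for HDAC10), as it did for 98.8% of all tested genes, so this count is near the background.

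When the lines were ordered by their mean DMSO level, the 3 libraries of neighbouring lines did not overlap in 37 of 50 neighbour pairs of the 10 members, against 67.6% of the pairs over all tested genes. For HDAC1 and HDAC2 no neighbours overlapped. HT-29, COLO205 and COLO320 overlapped in turn for HDAC3. COLO320 and HCT116 overlapped for HDAC4, and HCT-15 and SW480 for HDAC5. COLO320 with HT-29, and SW480 with HCT-15, overlapped for HDAC6. HT-29 and SW480 overlapped for HDAC7, and HT-29 and COLO320 for HDAC8. HDAC10 had a clear order only at the top, COLO205 before HCT-15 before HCT116, and the 4 lowest lines overlapped from neighbour to neighbour. For HDAC11, HCT116 overlapped with SW480 and HT-29 with HCT-15.

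**Figure D1:**
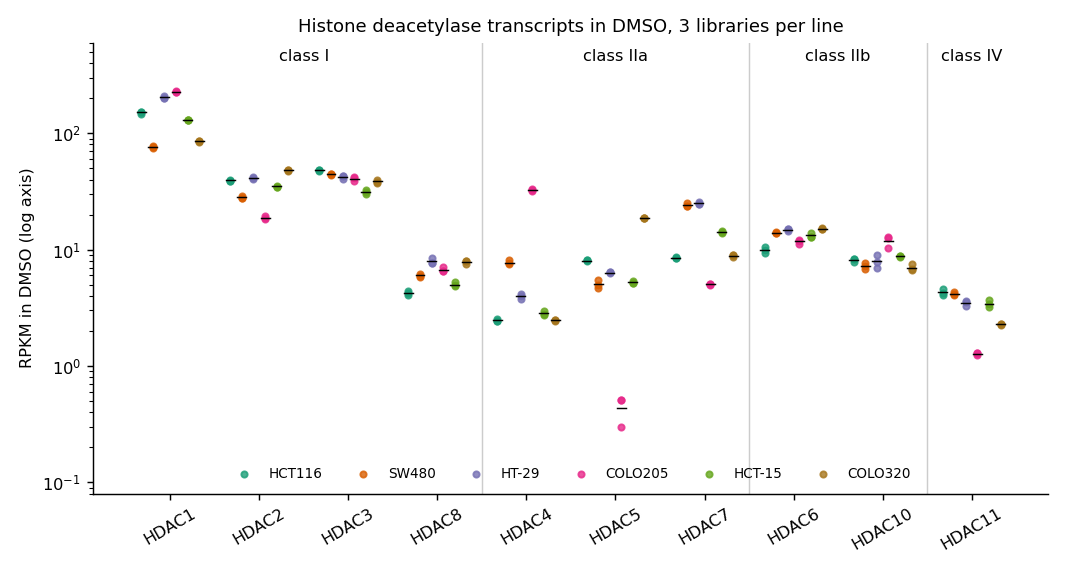
RPKM (log axis) of each gene in the DMSO libraries, grouped by class, with 1 colour per line, 1 point per library and a bar at the mean of 3. HDAC1 lies highest in every line, and the class IIa genes spread widest, with COLO205 at the top for HDAC4 (32.5 RPKM) and at the bottom for HDAC5 (0.437 RPKM).

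On average over the lines 5 members were called higher with JQ1 (HDAC3, HDAC5, HDAC6, HDAC10 and HDAC11) and 5 lower (HDAC1, HDAC2, HDAC4, HDAC7 and HDAC8). The call of HDAC4 was not stable, and that of HDAC1 did not hold with the cell line as the unit. Changes are given as JQ1 minus DMSO in log2(RPKM + 0.5), tested with limma over all genes with Benjamini-Hochberg adjustment and called at an adjusted p under 0.05. Folds of JQ1 effects are taken from these log2 changes, so the added 0.5 shrinks each fold, most where RPKM is low. Of all tested genes 88.4% were called on this average, 40.2% higher and 48.3% lower, so the share of members called is close to that of any gene. The sizes were modest: the median absolute log2 change of the 10 was 0.36, against 0.26 over all tested genes, and 0 of 10 members changed 2-fold on average, against 3.18% of all genes. Libraries of whole cultures cannot tell fewer transcripts per cell from fewer cells that make them.

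By line, HCT116 had 5 members called higher and 3 lower, beside 32.4% and 35.5% of all tested genes (67.8% together). SW480 and HT-29 each had 5 higher and 5 lower, beside 33.9% and 40.1% in SW480 (73.9%) and 36.6% and 37.3% in HT-29 (74.0%). COLO205 had 5 higher and 3 lower, beside 34.2% and 38.6% (72.8%). HCT-15, with 3 higher and 4 lower beside 34.8% and 35.4% (70.2%), had the fewest member calls. COLO320 had 5 higher and 4 lower, beside 31.0% and 37.2% (68.2%). JQ1 and DMSO libraries did not overlap for 10 members in HCT116 (69.1% of all tested genes), 10 in SW480 (73.8%), 9 in HT-29 (75.0%), 8 in COLO205 (74.0%), 7 in HCT-15 (73.2%) and 10 in COLO320 (71.6%). Across lines, 4 of 10 members, HDAC2, HDAC3, HDAC6 and HDAC7, were called in the same direction in all 6 lines, against 22.9% of all tested genes (11.2% higher and 11.7% lower). In each line the JQ1 and DMSO libraries of these 4 genes did not overlap, as for 23.5% of all genes. With the cell line as the unit, 8 of the 10 averages were called (adjusted p = 0.00329 for HDAC6 to 0.0351 for HDAC7), against 39.3% of all tested genes. HDAC1 (adjusted p = 0.154) and HDAC4 (adjusted p = 0.838) were not. Unless the line is named as the unit, the SE and adjusted p of an average rest on the spread between libraries within lines. They do not measure the spread between lines.

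**Figure D2:**
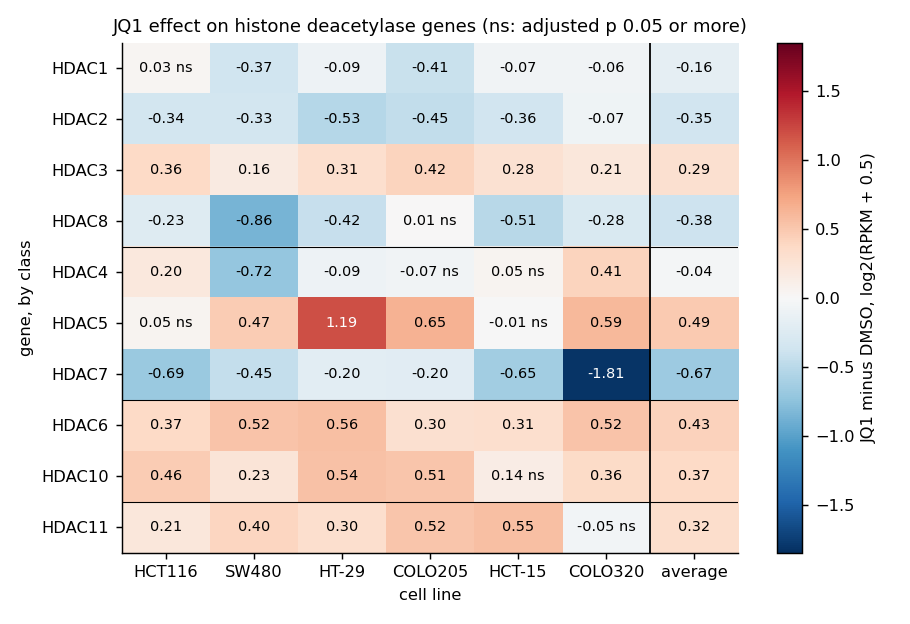
JQ1 minus DMSO in log2(RPKM + 0.5) for each gene (rows, by class) in each line and on average (columns), with the fitted value in each cell and "ns" where the adjusted p was 0.05 or more. HDAC2 and HDAC7 are negative and HDAC3 and HDAC6 positive across all 6 lines, and the most extreme cells are HDAC7 in COLO320 (−1.81) and HDAC5 in HT-29 (1.19).

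The windows before the start sites of these 4 same-direction genes are shown because their transcripts moved 1 way in every line. Each is the 250 bases upstream of a RefSeq start in GRCh38.p14, written from 5′ to 3′ on the strand of the gene. Capitals mark matches, on either strand, to 6 short motifs: the GC box GGGCGG, the E-box CACGTG that MYC and MAX bind, the CCAAT box CCAAT, the cyclic AMP response element TGACGTCA, the ETS site CCGGAAG and the TATA box TATAAA.
HDAC2 (chr6:113971149-113971398, - strand): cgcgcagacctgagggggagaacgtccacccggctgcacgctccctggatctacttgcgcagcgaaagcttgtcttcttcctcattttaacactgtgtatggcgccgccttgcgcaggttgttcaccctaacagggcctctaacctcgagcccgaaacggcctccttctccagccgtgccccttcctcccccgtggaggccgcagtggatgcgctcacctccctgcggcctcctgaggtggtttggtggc
HDAC7 (chr12:47819904-47820153, - strand): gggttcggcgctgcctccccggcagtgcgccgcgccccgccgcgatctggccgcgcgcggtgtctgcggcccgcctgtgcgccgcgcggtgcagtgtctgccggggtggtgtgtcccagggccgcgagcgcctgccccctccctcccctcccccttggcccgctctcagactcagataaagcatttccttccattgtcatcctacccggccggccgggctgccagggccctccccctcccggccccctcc
HDAC3 (chr5:141636850-141637099, - strand): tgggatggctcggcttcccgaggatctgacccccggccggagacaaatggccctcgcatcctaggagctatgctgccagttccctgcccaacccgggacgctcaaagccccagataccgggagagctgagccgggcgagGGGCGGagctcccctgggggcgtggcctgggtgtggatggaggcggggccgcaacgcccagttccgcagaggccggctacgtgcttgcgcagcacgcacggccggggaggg
HDAC6 (chrX:48801817-48802066, + strand): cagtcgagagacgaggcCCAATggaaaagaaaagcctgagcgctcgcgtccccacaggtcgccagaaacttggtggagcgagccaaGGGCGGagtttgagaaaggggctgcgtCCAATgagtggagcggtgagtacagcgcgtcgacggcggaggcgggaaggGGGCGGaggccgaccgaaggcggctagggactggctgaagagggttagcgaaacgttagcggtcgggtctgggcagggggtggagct
HDAC6 has 3 starts in the table, of which 1 is shown. The window shown held 2 GC boxes and 2 CCAAT boxes. Of the other HDAC6 windows, 1 held 1 GC box and no CCAAT box with a GC content of 50%, and 1 held 3 GC boxes and 2 CCAAT boxes with 67.2%. The latter overlaps the window shown, and its 2 CCAAT boxes and 1 of its GC boxes are the same sites. The HDAC3 window held 1 GC box, 111 bases before the start. None of the 6 motifs was present in the HDAC2 and HDAC7 windows, which says only that those letters do not occur there. Of 34943 such windows in the RefSeq table, 42.5% held a GC box, 32.0% a CCAAT box, 10.8% a TATA box, 8.48% the ETS site, 6.32% the E-box and 1.63% the cyclic AMP response element. GC content was 63.2% for HDAC2, 75.6% for HDAC7, 70.8% for HDAC3 and 64.4% for the HDAC6 window shown, with a median of 58.0% over all windows. Among the members 1 of the HDAC4 windows held an E-box, 13 bases before its start. HDAC5 had no entry in the promoter table.

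HDAC2, 1 of the catalytic pair of the SIN3, NuRD and CoREST complexes, fell in every line. In HT-29 it measured 41.9, 41.6 and 40.7 RPKM in DMSO and 27.8, 28.8 and 28.9 with JQ1. COLO205 gave 19.4, 18.3 and 18.9 against 14, 13.5 and 13.5, and HCT116 39.97, 39.1 and 38.8 against 31.4, 30.2 and 31.3. All JQ1 libraries of these lines lay below all DMSO libraries. SW480 went from 27.6, 28 and 29 RPKM to 22.8, 21.9 and 22.2, and HCT-15 from 34.7, 34.6 and 35.3 to 26.8, 27.1 and 27.5. COLO320, the line with the most HDAC2, went from 47.7, 47.9 and 48.1 only to 45.4, 46 and 45. The fall was 1.44-fold in HT-29, 1.37-fold in COLO205 and 1.26-fold to 1.28-fold in SW480, HCT116 and HCT-15. In COLO320 it was 1.05-fold (adjusted p = 0.00451) and no longer passed under quantile scaling (adjusted p = 0.473). The log2 change averaged −0.35 (SE 0.00899, adjusted p = 4.01e-24, lower in 6 of 6 lines). The effect in COLO320 differed from that in each other line (adjusted p = 3.05e-08 for SW480 to 2.93e-13 for HT-29), while no pair among HCT116, SW480 and HCT-15 was called different (adjusted p = 0.54 to 0.883). Over all genes and all 15 pairs of lines, 61.5% of such differences were called.

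HDAC1, the paralogue of HDAC2, fell unevenly. In COLO205, where it was most abundant, it measured 232, 224 and 226 RPKM in DMSO and 171, 177 and 166 with JQ1, a 1.33-fold fall (log2 change −0.41, or −0.27 under quantile scaling). SW480, where it was least abundant, went from 75.9, 74.5 and 77.5 to 58.7, 58.6 and 58, 1.3-fold. The difference between these 2 falls was not called (0.034 log2, SE 0.0292, adjusted p = 0.318). In HT-29, HCT-15 and COLO320 the fall was 1.04-fold to 1.07-fold, and in COLO320 (adjusted p = 0.0134) it was lost without JQ1 replicate 3 (adjusted p = 0.106) and turned sign under quantile scaling (0.0055). HCT116 gave 153, 152 and 148 against 156, 154 and 153 RPKM, with a 95% interval of the log2 change of −0.01 to 0.07 (adjusted p = 0.19). Its JQ1 libraries there lay just above the DMSO libraries. The ratio of HDAC1 to HDAC2 was 3.84 ± 0.044 in HCT116 DMSO libraries and 4.98 ± 0.1 with JQ1. HT-29 had 4.92 ± 0.121 and 6.7 ± 0.104, HCT-15 3.724 ± 0.0452 and 4.575 ± 0.0656, and COLO205 12.06 ± 0.137 and 12.55 ± 0.534. In COLO320, with 1.78 ± 0.0162 and 1.8 ± 0.0223, and in SW480, with 2.69 ± 0.0465 and 2.63 ± 0.0496, the ratios of single DMSO and JQ1 libraries overlapped. No direction is shown for these lines.

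HDAC3 moved the other way. It measured 48.2, 48.7 and 47.8 RPKM in HCT116 DMSO libraries and 63, 59.7 and 63.7 with JQ1. COLO205 went from 41.4, 41.8 and 38.8 to 54.9, 54.9 and 53.3, and HT-29 from 43, 43 and 40.3 to 51.6, 53.5 and 52. The groups were apart in each of these lines. HCT-15 gave 32.4, 31.2 and 30.3 against 36.1, 37.8 and 40.2 RPKM, and COLO320 38, 37.6 and 39.9 against 44.1, 44 and 45.5. SW480 had the smallest rise, from 43.9, 44.4 and 44.6 to 49.7, 51 and 48.5. The rise was 1.12-fold to 1.33-fold over the lines, with an average log2 change of 0.29 (SE 0.0139, adjusted p = 1.36e-17). In HCT-15 the log2 change of 0.28 was 0.16 with total reads as divisor. Of the 15 pairs of lines 7 differed in its effect. The mean ratio of HDAC1 to HDAC3 was lower with JQ1 in all 6 lines, with 5.6 ± 0.239 against 3.15 ± 0.0684 in COLO205 and 1.71 ± 0.0322 against 1.18 ± 0.0248 in SW480.

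HDAC8, the cohesin deacetylase, fell in 5 of 6 lines. SW480 went from 5.95, 6.2 and 5.83 RPKM to 3.14, 3 and 3.08, a 1.82-fold fall, and HCT-15 from 4.85, 4.95 and 5.22 to 3.34, 3.39 and 3.36, 1.43-fold. In HT-29, COLO320 and HCT116 the falls were 1.34-fold, 1.22-fold and 1.18-fold, with JQ1 libraries below DMSO libraries in each. COLO205 was the exception, with 6.49, 7.05 and 6.59 against 6.74, 6.68 and 6.84 RPKM, overlapping groups and a 95% interval of the log2 change of −0.09 to 0.10 (adjusted p = 0.886). The average log2 change was −0.38 (SE 0.0189, adjusted p = 2.29e-17). The size differed between lines (F test, adjusted p = 2.79e-11).

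Among the class IIa genes HDAC7 had the largest average fall of the 10 members and HDAC5 the largest average rise. HDAC7, a MEF2 corepressor known from endothelium and lymphocytes, measured 8.97, 8.91 and 8.64 RPKM in COLO320 DMSO libraries and 2.1, 2.17 and 2.2 with JQ1. HCT116 went from 8.46, 8.45 and 8.55 to 5.05, 5.01 and 5.15, and HCT-15 from 13.9, 14.2 and 14.4 to 8.88, 8.66 and 8.98. JQ1 and DMSO libraries were far apart in these 3 lines. SW480 gave 25.2, 23.6 and 23.7 against 17, 17.1 and 18.6 RPKM, and HT-29 25.5, 24.6 and 24.7 against 21.8, 22.1 and 20.9. COLO205, the line with the least, gave 5.02, 5.1 and 5.01 against 4.02, 4.78 and 4.17. Here the highest JQ1 library came close to the lowest DMSO library without reaching it.

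HDAC7 thus fell 3.51-fold in COLO320 (log2 change −1.81, SE 0.0396, adjusted p = 8.54e-25), and 1.00% of tested genes changed more there. Falls of 1.61-fold in HCT116 and 1.57-fold in HCT-15 were not called different (difference −0.04 log2, SE 0.0561, adjusted p = 0.587). Nor were those of HT-29 and COLO205, both 1.15-fold (adjusted p = 0.983). COLO320 differed from each of the other 5 lines (adjusted p = 4.89e-16 for HCT116 to 6.66e-20 for COLO205). The average log2 change was −0.67 (SE 0.0162, adjusted p = 7.94e-25). With the cell line as the unit its SE was 0.208 and its adjusted p 0.0351. SLC48A1, a heme transporter gene, overlaps HDAC7 in the RefSeq table, and reads of overlapping genes cannot be told apart here without strand. It was at 5.45 RPKM in COLO320 DMSO libraries and 5.77 with JQ1, and its log2 change was positive in 5 of 6 lines and −0.34 in SW480, where it reached 100.3 RPKM in DMSO. Of the other members HDAC4 overlaps 4 microRNA genes of the table, none of which passed the filter, and HDAC2 overlaps the antisense gene HDAC2-AS2.

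HDAC5, another MEF2 corepressor, rose in 4 lines. HT-29 went from 6.36, 6.36 and 6.29 RPKM to 15.1, 14.8 and 15.2, a 2.27-fold rise (log2 change 1.19, adjusted p = 4.68e-16). COLO320, the richest line, went from 18.8, 18.6 and 18.6 to 28.3, 28 and 28.9, 1.51-fold, and SW480 from 5.53, 4.65 and 4.92 to 6.77, 7.33 and 7.36, 1.39-fold. In COLO205 0.507, 0.297 and 0.507 became 0.967, 0.828 and 1.09 RPKM, 1.57-fold on the log2(RPKM + 0.5) scale, which understates change at so low a level. HCT116 and HCT-15 showed no call, with 7.9, 8.09 and 8.18 against 8.58, 8.3 and 8.2 RPKM in HCT116 and 5.34, 5.12 and 5.2 against 5.14, 5.16 and 5.28 in HCT-15. The 95% intervals of their log2 changes were −0.08 to 0.18 and −0.14 to 0.12. The HCT116 groups did not overlap, by a narrow margin, and the HCT-15 groups did. The effect in HT-29 differed from that in COLO320 (adjusted p = 1.67e-06). The log2 change in COLO205, 0.65, was 1.00 with a pseudocount of 0.1, 0.45 with 1 and 1.14 with voom on recovered reads, and that in COLO320, 0.59, was 0.58 to 0.61 in these settings, so the order of the pair depends on the setting. The average was 0.49 (SE 0.0261, adjusted p = 1.53e-16).

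HDAC5 rose and HDAC7 fell in COLO320, and the ratio of HDAC5 to HDAC7 went from 2.11 ± 0.0408 to 13.2 ± 0.295 in that line. It was higher with JQ1 in each of the 6 lines, with 0.254 ± 0.00462 against 0.697 ± 0.0281 in HT-29 and 0.369 ± 0.0136 against 0.588 ± 0.00876 in HCT-15.

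HDAC4, the remaining class IIa member described here, went in different directions in different lines. SW480 fell from 8.07, 7.6 and 7.51 RPKM to 4.43, 4.43 and 4.63, 1.65-fold (adjusted p = 2.7e-15). COLO320 rose from 2.48, 2.42 and 2.5 to 3.28, 3.44 and 3.59, 1.33-fold (adjusted p = 7.94e-10), and HCT116 from 2.43, 2.41 and 2.54 to 3.06, 2.86 and 2.79, 1.15-fold. The SW480 and COLO320 effects differed by 1.13 on the log2 scale (SE 0.0584, adjusted p = 8.24e-16). HT-29 gave 3.79, 4.02 and 4.16 against 3.75, 3.53 and 3.86 RPKM, overlapping groups with an adjusted p of 0.0426 by limma. That call was lost without DMSO replicate 2 or 3 or without JQ1 replicate 1 or 2 (adjusted p = 0.0581 to 0.224). In COLO205, where HDAC4 is abundant, 31.8, 32.6 and 33 stood against 30.2, 30.01 and 32.6, and in HCT-15 2.82, 2.73 and 2.96 against 2.89, 2.95 and 3.04. Neither was called, with 95% intervals of −0.15 to 0.02 and −0.03 to 0.14. In COLO205 leaving out JQ1 replicate 3 gave a call (adjusted p = 0.0334), as did voom on recovered reads (adjusted p = 0.00848). In HCT-15 quantile scaling did (adjusted p = 0.0494). Among the 10 members HDAC4 was the only one called upward in some lines and downward in others, against 33.6% of all tested genes. Its average change of −0.04 (adjusted p = 0.0411) had no stable call: leaving out any of 19 single libraries ended it (adjusted p up to 0.0756), and quantile scaling turned its sign (0.02, adjusted p = 0.354).

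**Figure D3:**
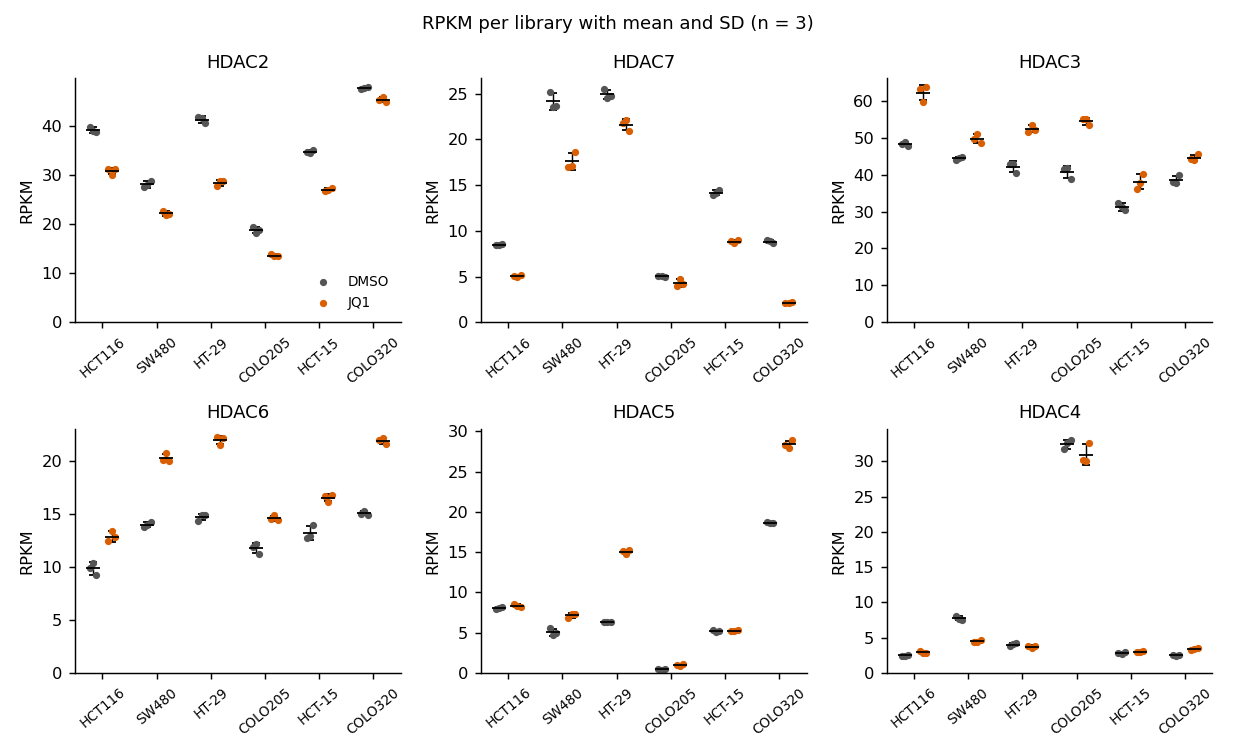
RPKM of 6 genes (1 panel each, axis from 0) in every DMSO (grey) and JQ1 (orange) library by line, with the mean and SD of 3. The JQ1 points of HDAC2 and HDAC7 lie below and those of HDAC3 and HDAC6 above the DMSO points in each line, HDAC5 rises in HT-29 from 6.34 to 15.1 RPKM, and HDAC4 falls in SW480 from 7.73 to 4.49 RPKM.

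Both class IIb genes rose on average. HDAC6, the tubulin deacetylase, went from 14.4, 14.9 and 14.9 RPKM to 22.3, 21.5 and 22.1 in HT-29. COLO320 gave 15, 15.3 and 14.9 against 22, 22.2 and 21.6, and SW480 13.8, 14 and 14.2 against 20.1, 20.7 and 20.03. Those were the larger rises, 1.43-fold to 1.48-fold, and no pair of the 3 lines was called different (SE of a difference 0.0492, adjusted p = 0.468 to 0.946). HCT116 went from 9.87, 10.4 and 9.27 to 12.4, 13.4 and 12.8 RPKM, HCT-15 from 12.8, 12.9 and 14 to 16.7, 16.1 and 16.8 and COLO205 from 11.9, 12.2 and 11.3 to 14.5, 14.9 and 14.4. These were rises of 1.23-fold to 1.29-fold, again with no pair called different (adjusted p = 0.215 to 0.833). With total reads as divisor the log2 change in HCT-15 was 0.2 instead of 0.31. The 9 pairs that join a line of the first trio to one of the second all differed. The trios were formed by the size of these same effects, so this is a description and no evidence for 2 groups of lines. Over all genes and pairs of lines, 61.5% of such differences were called. The average log2 change of HDAC6 was 0.43 (SE 0.0142, adjusted p = 1.29e-21).

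HDAC10, the polyamine deacetylase, had the largest standard error of the 10 members. COLO205 went from 10.3, 12.7 and 12.9 RPKM to 17.2, 16.8 and 17.5, and HT-29 from 9.01, 6.88 and 7.87 to 12.6, 12.4 and 10.2. The groups were apart in both lines. HCT116 gave 8.13 ± 0.303 against 11.5 ± 1.57 RPKM (SD, n = 3) and COLO320 6.93 ± 0.446 against 9.04 ± 0.701. The rises were 1.18-fold in SW480 to 1.46-fold in HT-29. In SW480 (adjusted p = 0.0315) the call was lost without any 1 of 4 libraries, DMSO replicates 1 and 3 and JQ1 replicates 2 and 3 (adjusted p = 0.0548 to 0.113). HCT-15 was not called, with 8.83, 8.57 and 8.84 against 10.4, 10.3 and 8.37 RPKM and an interval of −0.06 to 0.33, and became a call without JQ1 replicate 3 (adjusted p = 0.0435). Only 3 of 15 pairs of lines differed in the HDAC10 effect, and the average was 0.37 (SE 0.0395, adjusted p = 7.7e-10).

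HDAC11, the fatty acyl hydrolase, rose in 5 lines from low levels. HCT-15 went from 3.66, 3.38 and 3.18 RPKM to 5.53, 4.95 and 5.22, 1.47-fold, and COLO205 from 1.23, 1.28 and 1.28 to 1.83, 2.04 and 2.22, 1.43-fold. The log2(RPKM + 0.5) scale understates change most at the low COLO205 level. The rises of these 2 lines were not called different (adjusted p = 0.699), and no order between them is shown. SW480, HT-29 and HCT116 rose 1.32-fold, 1.24-fold and 1.16-fold, and in all 5 lines the JQ1 libraries lay above the DMSO libraries. In COLO320 2.31, 2.28 and 2.25 stood against 2.23, 2.17 and 2.15 RPKM, with JQ1 libraries slightly lower, a 95% interval of the log2 change of −0.16 to 0.06 and no call (adjusted p = 0.437). The effect in COLO320 differed from that in each of the other 5 lines (adjusted p = 0.0051 for HCT116 to 1.18e-07 for HCT-15). The average log2 change was 0.32 (SE 0.0224, adjusted p = 8.03e-14).

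The JQ1 effect differed between lines for all 10 members (F test, adjusted p = 7.25e-20 for HDAC7 to 0.0392 for HDAC10), against 93.3% of all tested genes, so this count too is near the background. For HDAC10 the call was lost without any 1 of 14 libraries (adjusted p = 0.0509 to 0.0998, the highest without HCT-15 JQ1 replicate 3) and without the filter on low values (adjusted p = 0.0559).

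The summed RPKM of the 10 genes shows how the classes shared the total. In DMSO the sum was 217 ± 1.95 RPKM in SW480 (SD, n = 3) to 357 ± 3.07 in COLO205, and HDAC1 alone made up 35 ± 0.413% of it in SW480 and 63.8 ± 0.699% in COLO205. With JQ1 the sum went to 316 ± 5.21 in COLO205 and 197 ± 1.06 in SW480, lower than in DMSO. In HCT-15 it was lower too, at 241 ± 1.9 against 248.6 ± 1.95. In HT-29 it stood at 356 ± 4.39 and 356 ± 2.54, and in HCT116 and COLO320 it was higher, at 297 ± 1.71 against 284 ± 4 and 245 ± 2.13 against 234 ± 0.473. The share of class I was lower with JQ1 in each line, with 82.8 ± 0.471% against 78 ± 0.636% in HT-29 and 85.5 ± 0.171% against 84.6 ± 0.602% in HCT116. Class IIb had a larger share with JQ1 in each line, with 9.79 ± 0.239% against 14.6 ± 0.281% in SW480. These sums are descriptions and were not tested.

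**Figure D4:**
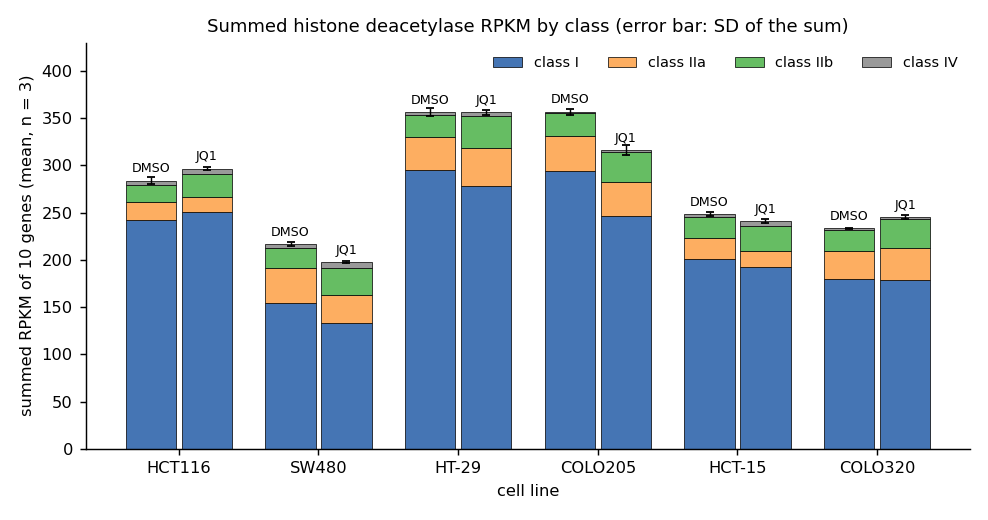
Mean summed RPKM of the 10 genes in each line with DMSO and with JQ1, stacked by class, with the SD of the total over 3 libraries. Class I fills 67.7% to 85.5% of every bar, and the class IIb part is taller with JQ1 in each line.

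The genes that work with these enzymes were read from lists of the complexes and of opposing enzymes. A list is given by its counts and its median average log2 change, beside −0.04 for all tested genes, of which 40.2% rose and 48.3% fell. Folds are averaged over lines on the log2 scale, and RPKM means are over 18 libraries. The lists were described, not tested as sets. The NuRD complex, which joins HDAC1 and HDAC2 to a chromatin remodeller, had 10 of 13 members lower and 2 higher on average, with a median of −0.31. The average of CHD5, 1 of the 10, rests on HCT116 (−1.51), the only line where it was called. CHD3, 1 of its remodelling ATPases, fell 2.32-fold on average (log2 change −1.21, adjusted p = 8.26e-34), from 16.8 to 7.03 RPKM, with line values of −1.46 to −0.91. The scaffold subunit MTA3 fell 1.89-fold, with line values of −1.46 to −0.09, and CDK2AP1 1.72-fold. CHD4, the paralogous ATPase of the complex, rose by 0.07 and GATAD2B by 0.27 on the log2 scale on average. By line, CHD4 was called higher only in COLO205 (0.51) and lower in COLO320 (−0.11). GATAD2B was called lower in HCT116 (−0.10) and higher in the other lines.

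The list of the SIN3 complex, another home of HDAC1 and HDAC2, had 8 of 14 genes higher and 2 lower (median 0.11). RBBP4 and RBBP7, which could be listed under either complex, were counted only under NuRD. Both were called lower on average, with log2 changes of −0.45 and −0.13, so the counts of the 2 lists depend on this choice. ARID4B rose 1.31-fold, ING1 1.25-fold and the scaffold SIN3A 1.13-fold. The CoREST complex, which pairs the deacetylases with the demethylase KDM1A, had 5 of 9 higher and 4 lower (median 0.10). Its scaffold RCOR1 rose 1.51-fold (adjusted p = 1.59e-27), with line values of 0.22 to 0.88, and PHF21A 1.12-fold. In the MiDAC complex 1 of 3 tested members rose and 2 fell (median −0.07). TRERF1, 1 of its subunits, fell 2.12-fold, from 9.06 to 2.38 RPKM. Its log2 change was −2.58 in COLO205 and −1.13 to −0.53 in the other lines.

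HDAC3 rose while parts of its own complex fell. Of 5 NCoR complex genes 1 rose and 3 fell (median −0.23). The WD40 subunits TBL1XR1 and TBL1X fell 1.88-fold (adjusted p = 6.88e-32) and 1.46-fold, each lower in 6 of 6 lines. GPS2, a small subunit of the same complex, rose 1.69-fold (adjusted p = 9.18e-29), from 44.2 to 76.2 RPKM. The corepressor NCOR1 itself had a log2 change of 0.01, without a call.

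Of the 7 sirtuins, the NAD-dependent deacetylases, 5 rose and 1 fell, with a median of 0.61. SIRT4 rose 1.87-fold from a mean of 0.745 RPKM, SIRT2 1.72-fold (adjusted p = 2.12e-26) and SIRT1 1.68-fold (adjusted p = 1.23e-26), each higher in 6 of 6 lines. SIRT6 fell by 0.11 on the log2 scale, and SIRT5 was not called. Lysine acetyltransferases, which oppose the deacetylases, had 5 of 10 higher and 5 lower (median 0.01). KAT2A, the SAGA acetyltransferase also called GCN5, fell 2.08-fold (adjusted p = 1.48e-31), from 38.3 to 18.2 RPKM, and KAT5 1.21-fold, while KAT6A rose 1.2-fold and EP300 1.17-fold. Among MEF2 factors and the kinases that send class IIa enzymes out of the nucleus, 7 of 10 rose and 2 fell (median 0.12), with MEF2B 1.26-fold higher and the kinase PRKD3 1.5-fold lower.

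**Figure D5:**
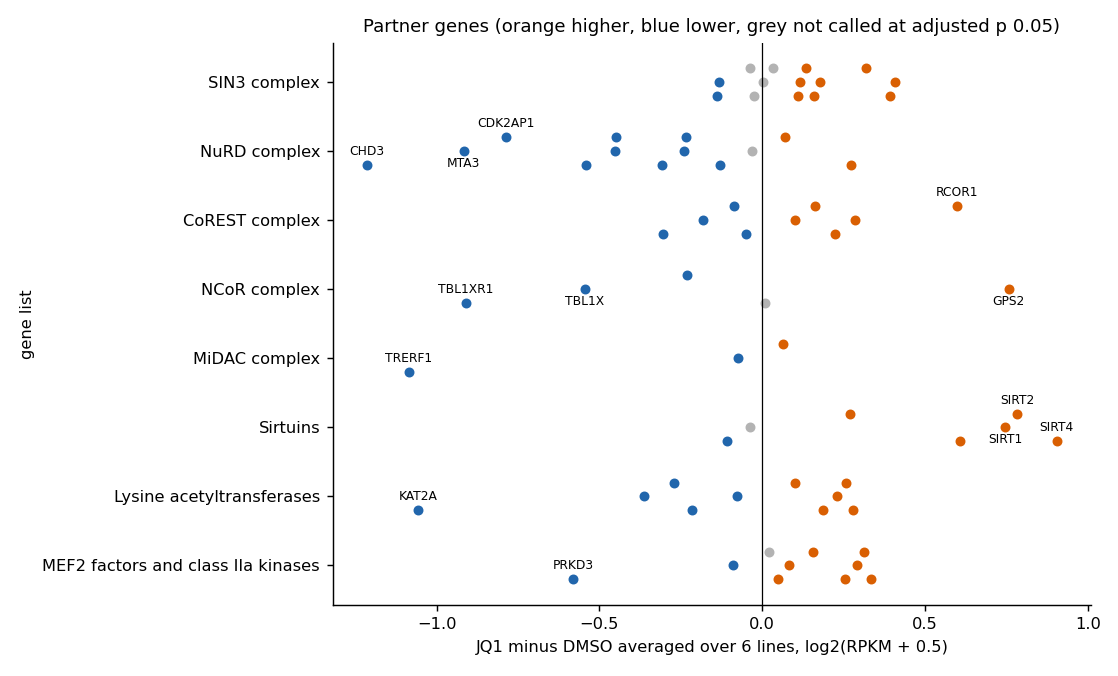
Average JQ1 minus DMSO change in log2(RPKM + 0.5) of every tested gene of 8 lists (rows), with genes called higher in orange, lower in blue and not called in grey. Most NuRD points lie left of 0, down to CHD3 at −1.21, and 5 of 7 sirtuins lie to the right, up to SIRT4 at 0.90.

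Patterns across the 12 group means were compared by Pearson's r in log2(RPKM + 0.5), as a description. The 12 points come from 6 lines and are not independent. HDAC1 was most like PSMA4 (r = 0.981) and XPNPEP1 (0.978), HDAC2 like CD276 (0.958) and PSRC1 (0.957), and HDAC3 like GRB2 (0.925) and FN3KRP (0.909). HDAC4 followed ACP5 (0.992) and OXGR1 (0.985), HDAC5 FBXL4 and ZSCAN9 (both 0.96), and HDAC7 SLC2A4RG (0.926) and CCNJL (0.918). For HDAC6 they were RNF103 (0.954) and DOP1A (0.94), for HDAC8 COMMD9 (0.968) and USP21 (0.958), for HDAC10 MIR639 (0.93) and UBL5 (0.927), and for HDAC11 CDC42EP2 (0.959) and METTL27 (0.952). Within the family the pair most alike was HDAC2 and HDAC5 (r = 0.806), and the pair most opposed was HDAC4 and HDAC5 (r = −0.848). These values of r mix differences between lines with the JQ1 effect and do not show a shared response. With JQ1, HDAC2 was called lower in 6 lines, and HDAC5 was called higher in 4.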

How the data were processed

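Per the labels' protocols, RNA came from growing cells, was treated with DNase and entered TruSeq libraries. The deposited values are RPKM per gene, computed by the authors. Per the submitters' processing notes, the tools of the authors include GSNAP, DESeq and limma, whose versions are not given in the sources. The same notes name a mouse assembly, NCBIM37, for human cells. Symbols came from RefSeq (GRCh38.p14) by Entrez number for 24519 of 26468 genes, and promoter sequences from RefSeq. The labels do not state whether strand was kept. Whole reads, within 0.01 read, were recovered from the RPKM steps for 100% of 23499 genes above 0, and the divisor used was not the read total (ratio of reads to divisor 0.878 to 1.02). Replicate pairs, 36 in all, differed by more than sampling noise (chi-square per gene 1.22 to 3.2).

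Genes with RPKM of at least 1 in at least 3 libraries were tested with limma 3.58.1 in R 4.3.3 on log2(RPKM + 0.5), over 12 group means, with a mean-variance trend. The fit had 24 residual and 2.97 prior degrees of freedom, with two-sided tests. On simulated data for the average, 100% of 200 genes changed 2-fold were recovered and 0.0652% of unchanged genes were called. The simulation drew independent replicates with the same fixed spread for every gene, and changed only well-covered genes, equally in all lines. It therefore checks that the code runs as meant, and cannot show how reliable the smaller changes of the members are. The contrasts tested were the JQ1 effect in each line, its average, and F tests over lines of the effect and of the DMSO level. Differences of the effect between 15 pairs of lines were each adjusted over all genes. Alternatives varied the pseudocount, filter, scaling, trend, unit and block, used voom on recovered reads, or left out single libraries. Intervals are 95% intervals of the fit. Tables used Python 3.11.15, numpy 2.4.6, pandas 2.3.3 and matplotlib 3.10.9. The members and the lists of complexes, sirtuins, acetyltransferases, MEF2 genes and cell markers were chosen with earlier results of these data known. 1 gene of the NCoR list is not reported here. The named genes are the members, MYC and HEXIM1, up to 3 rises and 3 falls per partner list among genes called on average with 1 sign in 6 lines, and the 2 tested genes most like each member. CHD4, CHD5, GATAD2B, NCOR1, RBBP4, RBBP7, SIRT5, SIRT6 and SLC48A1 were named after their values were seen.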

Additional observations from a re-analysis of the deposited data

Results flagged for a closer look

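The test of a difference between lines called the JQ1 effect of each of the 10 members, as it did for 93.3% of all tested genes. Adjusted p was 7.25e-20 for HDAC7, 6.1e-15 for HDAC4, 1.67e-14 for HDAC1, 3.18e-12 for HDAC2, 5.37e-12 for HDAC5, 2.79e-11 for HDAC8, 2.73e-07 for HDAC11, 7.61e-06 for HDAC6, 0.000173 for HDAC3 and 0.0392 for HDAC10. The last was lost without any 1 of 14 libraries (adjusted p up to 0.0998). The largest difference between 2 lines was that of HDAC7, whose log2 change was −1.81 in COLO320 and −0.20 in HT-29.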

How the results depend on the processing

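The average change kept its direction for 9 of 10 members in 9 alternatives and with each of 36 libraries left out, and 8 members kept their call in all of these. HDAC1 lost its call with the cell line as the unit (−0.16, adjusted p = 0.154), as did HDAC4 (−0.0372, adjusted p = 0.838), which left 3 members lower on average instead of 5. The HDAC4 average also lost its call with 0.1 as pseudocount (−0.032, adjusted p = 0.11) and with voom on recovered reads (−0.0302, adjusted p = 0.157), an alternative chosen after seeing the data. Quantile scaling reversed it (0.017, adjusted p = 0.354), and without single libraries it was −0.0435 to −0.0319. Quantile scaling left 2 members lower in COLO320 instead of 4, and it reversed the small changes of HDAC1 (0.0055) and HDAC11 (0.0752) there, of HDAC4 in COLO205 (0.0268) and of HDAC5 in HCT-15 (0.0104). With total reads as divisor HDAC4 in HCT-15 reversed to −0.0541. Without single libraries HDAC8 in COLO205 ran from −0.0123 to 0.0434, with reversals without DMSO replicate 1 or 3 (−0.0027). HDAC5 in HCT-15 ran from −0.01996 to 0.0082, with reversals without DMSO replicate 1 or JQ1 replicate 1 (0.00023). None of these reversed values was called, and the cause was not tested.

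With the replicate number as a block, the HDAC4 average was −0.0372 (adjusted p = 0.053) and its change in HT-29 lost its call (adjusted p = 0.0559). Same-numbered libraries showed no sign of pairing, with r of −0.148 to 0.0492 over 18 pairs. These r come from deviations of 3 libraries from their group mean. They cannot show whether samples were handled in pairs. With the block 6213 genes rose and 7479 fell on average, against 6245 and 7500 without it. The test over lines for HDAC10 also lost its call with the block (adjusted p = 0.0526) and without single libraries of HCT116 (DMSO 3), SW480 (DMSO 1 and 2, JQ1 1), HT-29 (DMSO 2 and 3, JQ1 1 and 2), COLO205 (JQ1 1 and 3) and HCT-15 (DMSO 1, 2 and 3, JQ1 3). The 2 planned count models were not run, and voom on recovered reads was the only test on reads. Single libraries held as few as 32 reads of HDAC5 in COLO205 and 78 of HDAC11.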
